A study of Caenorhabditis elegans with 2 samples.

Results

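The genes described here are cdc-48.1 and cdc-48.2, the paralogs that encode the AAA ATPase CDC-48, and 5 chaperone genes of the HSP70 and HSP90 families, hsp-1, hsp-3, hsp-4, hsp-6 and daf-21. They are 7 of the 19973 protein-coding genes annotated on the 6 nuclear chromosomes. They were chosen by name from results on these same peak lists, in which some of them carry a strong peak, so their counts and ranks below describe the data and were not tested. The gene daf-21 is listed under its newer symbol hsp-90 (WBGene00000915) in the Ensembl annotation of WBcel235, which is the ce11 genome. The other 6 were found under the names given.

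The assay was ChIP-seq, the sequencing of DNA pulled down with a chromatin protein, here eGFP-tagged NHR-237, a nuclear hormone receptor, in whole Caenorhabditis elegans L3 larvae of pooled male and female sex. All animals were of strain OP228, which carries the unc-119(ed3) III allele and the transgene insertion wgIs228, and they form 1 group with 2 biological replicates, with fragments of 150 to 350 bp and no age in hours. The authors' control library was not used here, and no second stage or treatment enters, so every statement is about regions of the genome and about the 2 replicates. The tagged receptor comes from the transgene, and the labels do not say in which cells it is made.

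CDC-48, called p97 or VCP in mammals, uses ATP to pull ubiquitinated proteins out of complexes and membranes so that the proteasome can degrade them. HSP70 chaperones bind unfolded stretches of protein in cycles of ATP hydrolysis, and HSP90 acts later, on clients that are nearly folded, among them steroid receptors in vertebrates. In the worm hsp-1 encodes the constitutive cytosolic HSP70, hsp-3 and hsp-4 the HSP70 of the endoplasmic reticulum (BiP in mammals), hsp-6 the mitochondrial HSP70, and daf-21 the cytosolic HSP90. Of these, hsp-4 and hsp-6 are widely used as reporters of the unfolded protein responses of the endoplasmic reticulum and of mitochondria.

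The reference sequences at the strongest summits are shown first, because the positions and short motifs described later lie in them. A summit is the single base that the authors' peak caller marks as the top of a region. The sequences of cdc-48.1 (chrII:10563460-10563660, minus strand), hsp-1 (chrIV:17278469-17278669, plus strand) and daf-21 (chrV:14685733-14685933, plus strand) hold 100 bp on each side of the summit, which is base 101. For hsp-3 (chrX:6092125-6092284, minus strand) the same window is shown as far as the last base before the annotated start. For cdc-48.2 (chrII:8138296-8138495, plus strand), the paralog whose strong peak is lacking, the 200 bp before the start are shown. That stretch is not centred on a summit and does not match the cdc-48.1 window in position. All are ce11 sequence, 5′ to 3′ on the strand of the gene, and the capitals mark matches to the fixed motifs listed further on.
cdc-48.1: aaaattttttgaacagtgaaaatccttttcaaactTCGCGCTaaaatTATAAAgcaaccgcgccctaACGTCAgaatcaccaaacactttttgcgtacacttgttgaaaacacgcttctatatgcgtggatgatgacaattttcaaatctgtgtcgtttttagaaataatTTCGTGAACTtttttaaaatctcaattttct
hsp-1: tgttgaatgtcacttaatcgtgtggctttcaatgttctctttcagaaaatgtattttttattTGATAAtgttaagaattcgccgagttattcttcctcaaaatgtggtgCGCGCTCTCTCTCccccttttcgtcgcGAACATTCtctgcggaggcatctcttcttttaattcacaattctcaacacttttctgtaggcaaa
daf-21: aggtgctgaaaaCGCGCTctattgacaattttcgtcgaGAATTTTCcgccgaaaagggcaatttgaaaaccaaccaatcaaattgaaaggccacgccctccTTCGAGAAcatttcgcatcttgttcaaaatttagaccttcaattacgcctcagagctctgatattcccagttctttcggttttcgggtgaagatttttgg
hsp-3: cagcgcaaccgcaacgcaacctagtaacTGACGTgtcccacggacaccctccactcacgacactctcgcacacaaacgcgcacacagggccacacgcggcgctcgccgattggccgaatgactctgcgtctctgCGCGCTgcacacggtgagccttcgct
cdc-48.2: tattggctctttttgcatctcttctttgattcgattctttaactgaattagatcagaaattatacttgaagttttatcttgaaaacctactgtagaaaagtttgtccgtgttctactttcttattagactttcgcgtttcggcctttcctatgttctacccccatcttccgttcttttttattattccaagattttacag

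Every one of the 7 genes had at least 1 candidate region in the pooled replicates, but only 3 of them had a peak that passed the authors' irreproducible discovery rate (IDR) threshold, a cut on how well the ranks of regions hold across replicate lists. A gene window ran from 2000 bp upstream of the annotated start to the gene end, and a region was counted by its summit. The peaks past the threshold lay at cdc-48.1, hsp-1 and daf-21, that is, at 1 of the 2 CDC-48 genes, at the cytosolic HSP70 and at the cytosolic HSP90. The genes of the endoplasmic reticulum and mitochondrial HSP70 had none. Among all protein-coding genes, 75.6% had a pooled candidate in the window (15094 of 19973), 75.3% had one in the replicate 1 list (6 of the 7 genes) and 75.9% in the replicate 2 list (7 of 7), so the presence of a candidate says little by itself. An IDR peak lay in the window of 37 genes, or 0.185% of them. The 48 IDR peaks are the 48 pooled regions of highest signal, with the lowest inside at 42.7 and the next region outside at 42.1.

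The signal quoted is the value that the authors' caller gave each region, on a scale that the sources used here do not state. It was therefore used to rank regions within 1 list of 30000, with rank 1 the highest, and each value is a single number with no SD. The number of reads behind the lists is unknown. The lowest signal was 13.8 in the pooled list, 7.61 in that of replicate 1 and 7.41 in that of replicate 2.

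**Figure D1:**
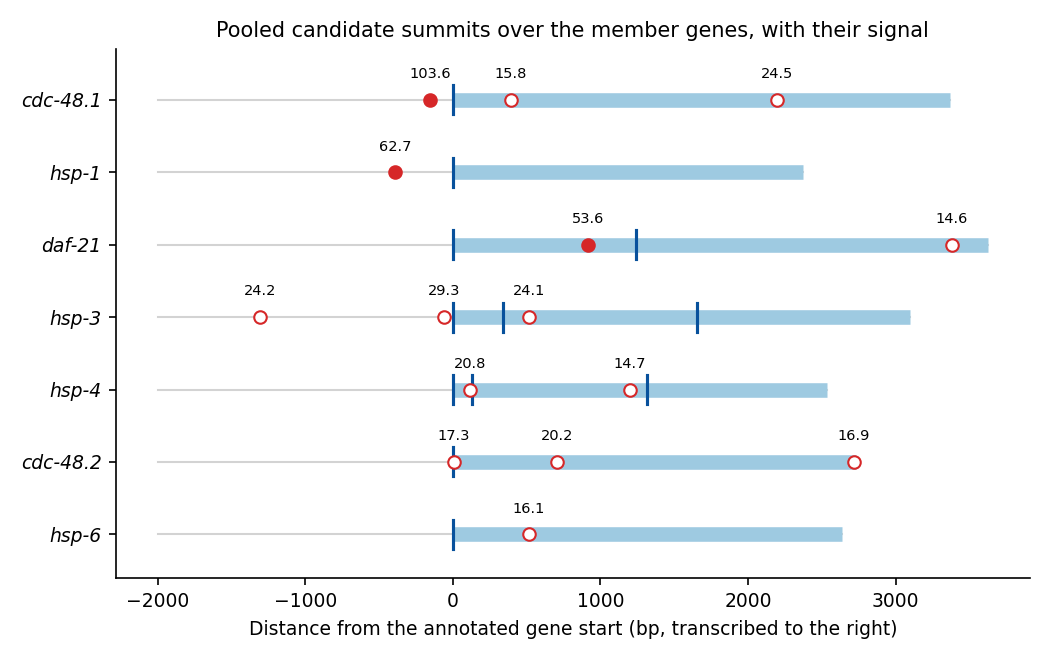
Position of each pooled candidate summit (circles, with its signal above) along the 7 genes, in bp from the annotated gene start. Blue bars are the genes, vertical ticks the starts of annotated transcripts, grey lines the 2000 bp upstream, and filled circles the IDR peaks, which lie before a transcript start at cdc-48.1 (103.6), hsp-1 (62.7) and daf-21 (53.6).

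The CDC-48 genes stood far apart, with best pooled ranks of 13 and 8440. The gene cdc-48.1 (WBGene00007352, II 10560036 to 10563407, minus strand) had a peak at II 10563385 to 10563734 with a pooled signal of 103.6, beside 55.0 in replicate 1 and 46.2 in replicate 2. Its rank was 13 in all 3 lists, and the summits of the replicates were 7 bp apart. The pooled summit lay 153 bp upstream of the start and 170 bp before the first coding base. Only 8 protein-coding genes, cdc-48.1 included, had a pooled signal this high in the window. One of them was C06A1.7, whose window holds the same summit, 1331 bp upstream of its start on the opposite strand. A snoRNA gene, C06A1.9, starts 496 bp downstream of the summit, within the cdc-48.1 intron.

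Inside cdc-48.1 there were 2 weaker candidates. One, 2195 bp downstream of the start in a coding exon, had a pooled signal of 24.5 (rank 2999), beside 9.73 in replicate 1 (rank 16237) and 14.5 in replicate 2 (rank 2643). The other, 393 bp downstream in an intron, ranked 22815 in replicate 1 and 21024 in the pool and had no match in replicate 2.

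The paralog cdc-48.2 (WBGene00008053, II 8138496 to 8141230, plus strand) had 3 pooled candidates and none near the IDR limit. The one at the start, 8 bp downstream of it and 7 bp before the first coding base, reached 17.3 (rank 15692) in the pooled list and 13.9 (rank 3659) in replicate 1. The highest in the pool lay in a coding exon 703 bp downstream (11.5 in replicate 1, 20.2 in the pool, ranks 9077 and 8440). The third lay 2715 bp downstream, in the 3′ UTR, where ints-11 overlaps it (11.3 and 16.9, ranks 9641 and 16956). None of these was matched within 100 bp in replicate 2, whose only candidate in the window lay 177 bp upstream with a signal of 8.03 and rank 25352. The highest pooled signal of cdc-48.2 was reached or passed by 34.4% of protein-coding genes, and that of cdc-48.1 by 0.0401%.

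The proteins of this pair are close, while their upstream sequences share only short runs. CDC-48.1 and CDC-48.2, translated from the annotated coding sequence, have 809 and 810 residues and were identical at 88.1% of the columns of a global alignment. The coding sequences were identical at 75.5% of columns, with a longest shared run of 35 bp. Within 1000 bp upstream of the starts the longest run shared by the pair was 10 bp, as long as between cdc-48.1 and hsp-1. All 50 bp words in the listed regions of both genes occurred once in the genome, so that such a read from 1 paralog has no exact second place at the other.

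The cytosolic HSP70 gene hsp-1 (WBGene00002005, IV 17278959 to 17281330, plus strand) had a single pooled candidate, and it was an IDR peak, at IV 17278394 to 17278743. Its pooled signal was 62.7 (rank 25), beside 38.0 in replicate 1 (rank 20) and 24.7 in replicate 2 (rank 43). The replicate summits were 10 bp apart, and the pooled one lay 390 bp upstream of the start. The summit is 156 bp downstream of the start of the non-coding gene F26D10.23, whose exon overlaps the sequence shown, and 1613 bp downstream of the start of clec-196, a C-type lectin gene. Only 14 protein-coding genes had a pooled signal as high. Elsewhere in the hsp-1 window each replicate had 1 weak candidate of its own, at rank 2586 in replicate 1 (1916 bp upstream) and 18819 in replicate 2 (1982 bp downstream).

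The HSP90 gene daf-21 (WBGene00000915, V 14684918 to 14688545, plus strand) had an IDR peak at V 14685658 to 14686007, with a pooled signal of 53.6 (rank 34), beside 31.1 in replicate 1 (rank 34) and 21.5 in replicate 2 (rank 128). The replicate summits were 9 bp apart. How the peak is described depends on which transcript is taken. From the start of the gene, which is that of transcript C47E8.5.2, the summit lies 915 bp downstream, in an intron. The second transcript, C47E8.5.1, starts 1242 bp further downstream, and the summit is 327 bp upstream of it and 331 bp before the first coding base. The same summit lies 348 bp upstream of C47E8.4, on the opposite strand, so that it sits between divergent transcripts. The other pooled candidate of daf-21 lay 2137 bp into C47E8.5.1, in a coding exon, at rank 26397 in the pool and 26673 in replicate 1.

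This annotation choice decides whether daf-21 is counted. With a promoter of 1000 bp upstream to 100 bp downstream of the gene start, 19 protein-coding genes (0.0951%) had an IDR summit, with cdc-48.1 and hsp-1 among them. Counted from the start of any annotated protein-coding transcript, a setting added after the values were seen, there were 21 genes (0.105%; 35.2% for any pooled summit), and the 2 that joined were daf-21 and ZK1193.2. Measured to the nearest transcript start, the IDR summits of cdc-48.1, hsp-1 and daf-21 lay 153, 390 and 327 bp upstream.

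**Figure D2:**
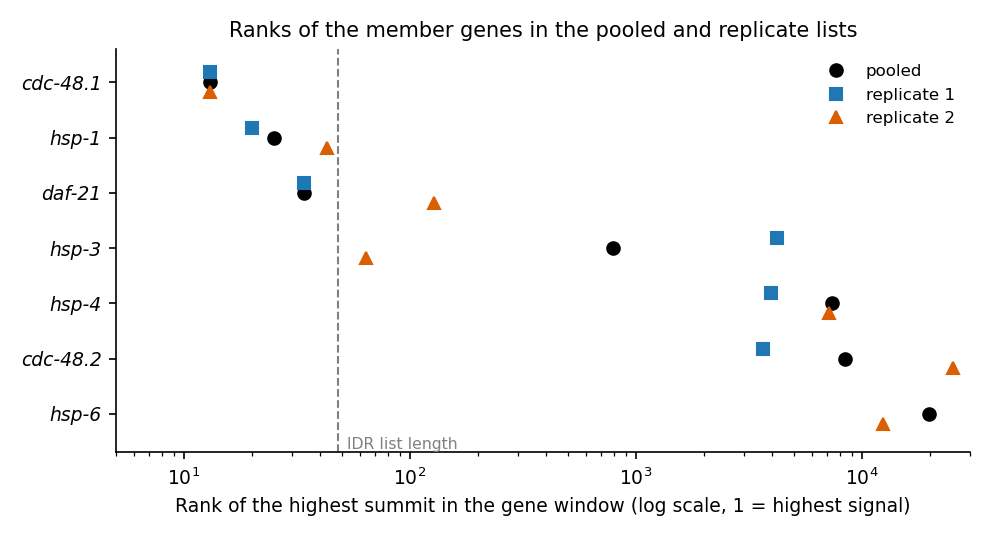
Rank of the highest summit in each gene window (log axis, 1 is the highest signal) in the pooled list (black circles), replicate 1 (blue squares) and replicate 2 (orange triangles), with the number of IDR peaks, 48, as a dashed line. The genes cdc-48.1, hsp-1 and daf-21 rank from 13 to 128 in every list, hsp-3 ranks 64 in replicate 2 and 4201 in replicate 1, and hsp-6 has no summit in replicate 1.

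Of the paralogs in the endoplasmic reticulum, hsp-3 was the higher in the pool and in replicate 2, and its strongest pooled summit was matched in replicate 2 alone. In replicate 1 the best summits of hsp-3 and hsp-4 were close, at 13.6 (rank 4201) and 13.8 (rank 3948), with hsp-4 the higher. The gene hsp-3 (WBGene00002007, X 6089028 to 6092124, minus strand) had 3 pooled candidates. The highest, at X 6092009 to 6092358, scored 29.3 in the pooled list (rank 791) and 23.3 in replicate 2 (rank 64), 60 bp upstream of the gene start and 399 bp upstream of transcript C15H9.6a.1. Replicate 1 had no summit within 100 bp. Its nearest was 114 bp from the pooled summit, with a signal of 10.9 and rank 11294, so the replicates rank this promoter very differently. GC content within 100 bp of the pooled hsp-3 summit was 62.7%, a value reached by 0.04% of pooled summits, whose median was 36.3%. For comparison it was 32.8% at the IDR summit of cdc-48.1, 38.8% at that of hsp-1 and 42.8% at that of daf-21, against a median of 40.3% at the 48 IDR summits. Whether base composition has a part in the hsp-3 value was not tested.

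The other hsp-3 candidates lay 517 bp downstream of the gene start in a coding exon (24.1 in the pool, rank 3275) and 1305 bp upstream (24.2, rank 3169). The latter is 129 bp inside the neighbouring gene C15H9.5, on the opposite strand.

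The gene hsp-4 (WBGene00002008, II 7350112 to 7352645, minus strand) had its highest pooled candidate at II 7352354 to 7352703, with a pooled signal of 20.8 (rank 7399), 13.8 in replicate 1 (rank 3948) and no match in replicate 2. It lies 116 bp downstream of the gene start and 11 bp upstream of transcript F43E2.8a.1. The second, 1200 bp downstream in an intron, was matched in replicate 2 alone (11.9, rank 7168) and had a pooled signal of 14.7 (rank 25613). HSP-3 and HSP-4 were identical at 85.02% of aligned columns, with 661 and 657 residues.

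The mitochondrial HSP70 gene hsp-6 (WBGene00002010, V 4824124 to 4826760, minus strand) was the lowest of the 7 in the pooled list and had no summit in replicate 1, while in replicate 2 cdc-48.2 was lower. Its only pooled candidate lay in a coding exon 517 bp downstream of the start, with a pooled signal of 16.13 (rank 19815) and 10.3 in replicate 2 (rank 12453). Replicate 2 had a second one 1210 bp downstream at rank 24550. A pooled signal as high was found for 61.2% of protein-coding genes, against 4.19% for hsp-3 and 31.1% for hsp-4. HSP-6 was identical to HSP-1 at 48.06% of aligned columns, and HSP-3 and HSP-4 to HSP-1 at 59.97 and 58.5%.

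The number of pooled summits did not follow their height. It ran from 0.216 per kb of window at hsp-6 and 0.229 at hsp-1 to 0.634 at cdc-48.2, against a median of 0.293 over all protein-coding genes.

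In order of pooled signal the genes were cdc-48.1, hsp-1, daf-21, hsp-3, hsp-4, cdc-48.2 and hsp-6. The first 3 kept this order in replicate 1. In replicate 1 they were followed by cdc-48.2 (rank 3659), hsp-4 (3948) and hsp-3 (4201). In replicate 2, hsp-3 (rank 64) stood above daf-21 (rank 128), and hsp-4 (7168), hsp-6 (12453) and cdc-48.2 (25352) came last. The order of the 4 genes without an IDR peak is therefore not the same in any pair of the 3 lists.

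**Figure D3:**
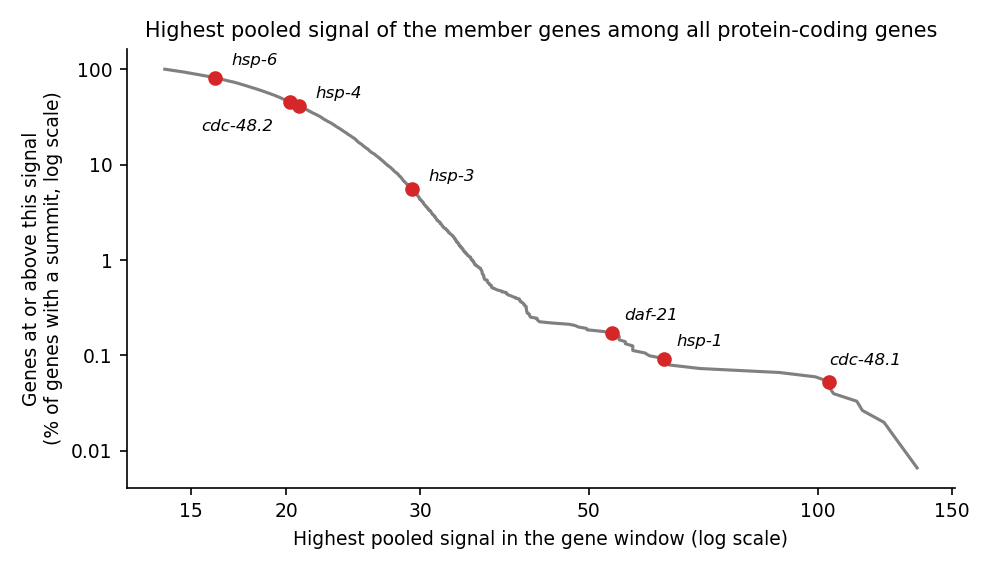
Percentage of protein-coding genes with a pooled summit in the window (log axis) whose highest pooled signal is at or above the value on the horizontal axis (log axis). Red points are the 7 genes: hsp-6, cdc-48.2 and hsp-4 sit in the bulk, hsp-3 at 29.3, and daf-21, hsp-1 and cdc-48.1 on the sparse right tail from 53.6 to 103.6.

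The replicates were also compared by position. The highest pooled summit was matched within 100 bp in both replicates for cdc-48.1, hsp-1 and daf-21, 3 of the 7 genes, against 29.7% of the 15094 protein-coding genes with a pooled summit. The weak cdc-48.1 candidate 2195 bp downstream of the start was matched in both as well, with the replicate summits 6 bp apart. A summit among the top 500 of each replicate lay in the windows of these same 3 genes and in those of 69 protein-coding genes in all (0.345%). Over all IDR peaks, 47 of 48 were matched in both replicates, with a median of 27 bp between the replicate summits, and the 7 to 10 bp at these 3 genes was within the lower part of that range (lower quartile 8.5 bp, upper 54.5 bp). A top 500 pooled summit lay in the windows of 3 of the 7 genes and 2.65% of protein-coding genes, and a top 5000 one in those of 4 and 22.5%. In the promoter as defined from the gene start, 4 of the 7 genes had a pooled summit against 31.1% of protein-coding genes, 3 a top 5000 summit against 5.89%, and 2 a top 500 summit against 0.786%. The replicate 1 and replicate 2 lists put a summit in the promoter of 4 genes each, against 30.5 and 31.2%.

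The protein-coding genes with IDR peaks whose ranks in the 3 lists were most like those of the members were named by distance between log10 ranks. For cdc-48.1 these were C06A1.7, which shares the summit, the polyketide synthase gene pks-1 (ranks 12, 12 and 12 in the pool, replicate 1 and replicate 2) and the ribosomal protein gene rpl-3 (16, 19 and 14). For hsp-1 they were C17C3.24 (22, 22 and 54), egg-5 (18, 26 and 25) and the epsin gene epn-1 (27, 21 and 92). For daf-21 they were C47E8.4, which shares the summit, epn-1 and the ribosomal protein gene rpl-20 (30, 31 and 279). The likeness is over 3 lists made from 2 replicates.

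The short sequences at the summits were compared with 12 motifs, searched on both strands within 100 bp. AGCGCG was at the IDR summits of cdc-48.1, hsp-1 and daf-21, at the highest pooled summits of hsp-3 and hsp-4, and at none of the other 10 pooled summits of the 7 genes. It was at 2.06% of the 30000 pooled summits and at 9 of the 48 IDR summits (18.75%). In all 5 cases it read CGCGCT along the strand of the member gene. The cdc-48.1, daf-21 and hsp-3 summits also lie upstream of C06A1.7, C47E8.4 and C15H9.5, on whose opposite strands it reads AGCGCG. Along the member gene, the motif began 64 bp before the summit at cdc-48.1, 88 bp at daf-21 and 39 bp at hsp-4. It began 9 bp after the summit at hsp-1 and 34 bp at hsp-3. AGCGCG was taken up because earlier results on the IDR peaks had shown it frequent at autosomal ones, which include those of cdc-48.1, hsp-1 and daf-21, so its presence there is no separate evidence. The summits of hsp-3 and hsp-4 were not among those peaks, but they were matched in replicate 2 alone and replicate 1 alone. GC content within 100 bp was 62.7% at hsp-3 and 40.3% at hsp-4. Whether it has a part in these matches to AGCGCG was not tested.

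From 1000 bp upstream to 100 bp downstream of the gene start, 6 of the 7 promoters held the motif, against 13.6% of all protein-coding promoters of that length. At cdc-48.1, hsp-1, hsp-3 and hsp-4 these are the copies at the summits counted again, so the count adds little. Promoter copies away from a summit were found at daf-21, 237 bp upstream of the gene start and 1152 bp from its peak, and at cdc-48.2, and hsp-6 held none. In cdc-48.2 it occurred once in each orientation, 826 and 802 bp upstream of the start 834 and 810 bp from the nearest pooled summit, and the 200 bp shown above hold none. Of 2726 protein-coding promoters with AGCGCG, 28.6% held a pooled summit, 1.58% a top 500 summit and 10 an IDR peak, and of 17247 without it 31.5%, 0.661% and 9. The IDR counts include peaks from which the motif was taken.

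Heat shock factor binds inverted repeats of GAA, which the arrangements TTCNNGAA and GAANNTTC represent in their shortest form. The cdc-48.1 peak held TTCNNGAA, the hsp-1 peak GAANNTTC and the daf-21 peak both. Among the 48 IDR summits only 5 held either arrangement, 3 of them these genes, against 24.1% of pooled summits. Weak candidates held them as well, 1 each in daf-21 and hsp-4 and 2 in hsp-3. Both arrangements are common, with TTCNNGAA in 54.7% and GAANNTTC in 54.1% of all protein-coding promoters. The counts depend on the width. Within 50 bp, 2 IDR summits held either (12.8% of pooled summits), and the cdc-48.1 match was lost. Within 150 bp, 8 did (33.7% of pooled summits). At cdc-48.1 the match overlaps one to AGTTCA on the printed sequence. The word AGGTCA, the half-site of many nuclear receptors, was found at none of the summits of cdc-48.1, hsp-1, daf-21, hsp-3, hsp-4 or hsp-6, and at 1 weak cdc-48.2 candidate (rank 16956), against 5.01% of pooled summits. AGTTCA was at the IDR summit of cdc-48.1, at 1 candidate of cdc-48.2 and at 1 of hsp-4, against 14.3%.

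Of the remaining motifs, GAGAGA was at the hsp-1 peak in 2 overlapping copies, the first of which shares a base with AGCGCG, and at the start of cdc-48.2 (11.5% of pooled summits, 27.1% of IDR summits). GCGCGA was at the cdc-48.1 peak, overlapping AGCGCG, and at the hsp-4 start (2.35% of pooled summits, 29.2% of IDR summits). TGACGT was at the cdc-48.1 peak and in 2 copies at the hsp-3 start, 1 of them past the end of the printed stretch (6.63%). TATAAA was at the cdc-48.1 peak (20.3%), and TGATAA at the hsp-1 peak and at 1 weak candidate each of hsp-3 and hsp-4 (17.9%). Neither CCCTGC nor CACGTG was within 100 bp of any pooled summit of the 7 genes (2.32 and 3.62% of all pooled summits, 33.3 and 4.17% of IDR summits). CCCTGC had the highest share of IDR summits among the 12 motifs. The 12 motifs were chosen with earlier results of these data known, so their shares of IDR summits are no separate evidence. A match is a description of the letters, and no match says nothing about any factor.

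Genes of related families and pathways, not all of them partners of these chaperones, were counted in 10 lists with 163 genes in all. The lists were chosen with earlier results known. None of the 163 genes had an IDR peak in its window, against 0.185% of protein-coding genes. With so low a share, a count of none in a list of this size says little. A pooled summit was in the window of 125 (76.7%, against 75.6% of protein-coding genes), a top 5000 summit in that of 35 (21.5% against 22.5%) and a top 500 summit in that of 6 (3.68% against 2.65%). The median of the highest signal was 19.3 over the 125 genes with a summit and 19.7 over all protein-coding genes with one. These shares are close to the background.

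By role, the other HSP70-class genes had a pooled summit in 7 of 8 windows, led by hsp-110, an HSP70 nucleotide exchange factor. Its best summits had rank 4197 in the pool (23.2), 5311 in replicate 1 and 7129 in replicate 2, the order used below. The proteasome gene rpn-3 was listed with the same pooled signal and rank. The other HSP90-class genes and co-chaperones had 9 of 14, led by enpl-1, the HSP90 of the endoplasmic reticulum (36.2, rank 117 in the pool, 1966 in replicate 1 and 86 in replicate 2). That was the highest pooled signal in all 10 lists. The genes imp-2 and unc-108 had the same highest pooled signal, so it is not particular to enpl-1. As at hsp-3, the best summit in the enpl-1 window ranked far higher in replicate 2 than in replicate 1. Replicate ranks given for these lists are of the best summit in the window. They were not matched by position to the pooled summit. The CDC-48 cofactors and genes of degradation from the endoplasmic reticulum had 13 of 19, led by ubxn-4. This UBX-domain gene had a signal of 30.7 and ranks 490, 1361 and 2754. The same highest pooled signal was listed for cyy-1 and cutc-1. Other chaperones and proteases of the endoplasmic reticulum and mitochondria had 12 of 12, led by hsp-60 and Y22D7AL.10. The windows of this pair share a summit (29.04, ranks 840, 3823 and 9773). In the promoter from the gene start, these lists had a pooled summit at 4 of 8, 5 of 14, 1 of 19 and 7 of 12 genes. Among all protein-coding genes that share was 31.1%.

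The CCT chaperonin, which folds actin and tubulin, had 6 of 8, led by cct-8 (34.5, ranks 171 in the pool, 594 and 2666). J-domain proteins, the HSP70 partners, had 24 of 29, led by dnj-14 (30.4, ranks 550, 12327 and 3160). Small heat shock proteins, some of which are made on stress, had 9 of 16. They were led by hsp-16.2 and hsp-16.41, again with 1 summit (24.1, ranks 3257, 5675 and 27792). The 2 symbols hsp-16.1 and hsp-16.48 each name a pair of genes in the annotation, near-identical copies whose reads may not be told apart. Stress regulators had 12 of 13, led by atfs-1 (32.2, ranks 320, 2952 and 2831), which drives the mitochondrial unfolded protein response. The 26S proteasome had 23 of 32, led by rpn-1 (30.9, ranks 473, 4450 and 2627). Other AAA ATPases had 10 of 12, led by lex-1 (30.2, ranks 597, 13715 and 1370). The highest pooled signals of cct-8, dnj-14 and rpn-1 were also those of Y55F3AR.2, glit-1 and T22D1.8, in that order. In the promoter from the gene start, the lists of this paragraph had a pooled summit at 2 of 8, 9 of 29, 7 of 16, 2 of 13, 9 of 32 and 1 of 12 genes.

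**Figure D4:**
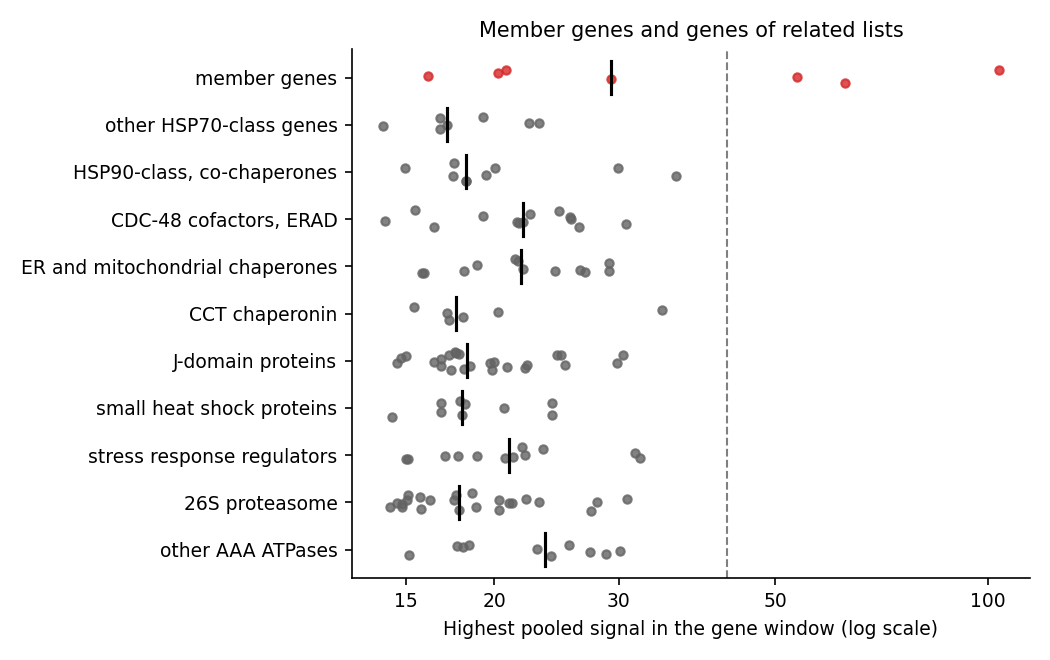
Highest pooled signal in the gene window (log axis) for the 7 member genes (red) and for each gene of the 10 related lists that had a pooled summit (grey), with list medians as black lines and the lowest IDR peak (42.7) as a dashed line. Only cdc-48.1, hsp-1 and daf-21 lie to the right of the dashed line, and enpl-1 (36.2) is the highest of the related genes.

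The AGCGCG motif was in the promoter of 36 of the 163 related genes (22.1%, against 13.6% of all protein-coding promoters). It was in 7 of 12 promoters of the other endoplasmic reticulum and mitochondrial chaperones and proteases, 4 of 12 of the other AAA ATPases and 6 of 32 of the proteasome. It was in 4 of 14 of the other HSP90-class genes and co-chaperones, 5 of 19 of the CDC-48 cofactor list and 7 of 29 of the J-domain proteins. Stress regulators had it in 2 of 13 and the CCT chaperonin in 1 of 8. It was in 0 of 8 of the other HSP70-class genes and 0 of 16 of the small heat shock proteins. These are counts with no test, over lists that are not alike in size.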

How the data were processed

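ChIP-seq of eGFP-tagged NHR-237 in L3 larvae was represented by lists of regions that the authors deposited. Per the submitters' file lists, the authors called peaks and background for each of 2 replicates and for their pool, each against a control, and kept the regions past an IDR threshold. The sources used here name no aligner, caller or threshold. The signal in the deposited lists is the authors' value for each region, and no read count is known. Only ce11 lists were used; ce10 positions were not converted. The regions are 350 bp wide as a rule, 364 bp in replicate 2.

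Genes were those of Ensembl release 115 (WBcel235), and sequence came from the RefSeq copy of the same assembly, whose chromosome lengths hold every listed region. Positions are 1-based. Summits within 100 bp were called matched. Protein identity came from global alignment with BLOSUM62, with a gap opening cost of 10 and an extension cost of 0.5. Of the list names, trap-1 and rmd-1 were left out because in the worm they name other kinds of genes, and C01G10.8, hsp-10, clpx-1, dnj-6, hsp-16.11, hsp-16.49 and symr-1 did not match a symbol.

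The members, lists and motifs were chosen with earlier results of these data known, and no test was made. Genes named beyond the members were those sharing or next to a summit, the first by signal in each related list, and the 3 most alike in rank. The counting of summits in gene windows was checked on simulated positions. The alternatives were other windows, region overlap, stricter ranks, single replicates, other matching distances and other widths for motifs. Python 3.11.15, numpy 2.4.6, pandas 2.3.3 and biopython 1.88 were used.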

Additional observations from a re-analysis of the deposited data

How the results depend on the processing

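The count of 3 genes with an IDR peak was also 3 with 1000 bp upstream of the start, with region overlap in place of the summit, with promoters from any transcript start and with the top 48 regions of replicate 1 alone. It was 2 with promoters from the gene start (daf-21 drops out) and with the top 48 regions of replicate 2 alone (daf-21, at rank 128, drops out). The 7 genes with a pooled summit became 4 with the promoter alone, 4 with the top 5000 regions and 3 with the top 500, and the same promoter setting took the count in replicate 2 from 7 to 4. With 1 replicate left out the count ran from 6 to 7. Matching within 50 bp left 3 genes with the highest summit in both replicates, and 200 bp gave 4, with hsp-3 added.

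The share of protein-coding genes with a pooled summit was 66.7% with 1000 bp upstream, 31.1% with the promoter alone, 35.2% with promoters from any transcript start, 78% with region overlap, 22.5% with the top 5000 regions and 2.65% with the top 500. These follow from wider or narrower windows and fewer regions. The share with an IDR peak was 0.0951% with the promoter alone and 0.105% from any transcript start. Within 50 bp of the summit AGCGCG was at 1 of the 3 IDR peaks, that of hsp-1, and within 150 bp at 3. The unknown number of reads limits every value, and lists of equal length do not show which replicate is deeper.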

Other observations

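The 9 IDR peaks with AGCGCG within 100 bp of the summit were those at cdc-48.1, hsp-1 and daf-21 and 6 others, here named by the nearest start of a protein-coding gene and chosen after the values were seen. The peaks at the ribosomal protein genes rpl-3 (89.04, rank 16, summit at -295 bp from the start) and rpl-35 (60.1, rank 26, at -430) were among them. The others were at eelo-2 (63.5, rank 23, at -226), epn-1 (59.3, rank 27, at -314), set-16 (54.8, rank 33, at -158) and C34C12.1 (52.1, rank 35, 2067 bp downstream). Of these 9 peaks, 8 had a summit from 153 to 430 bp upstream of a start, when daf-21 is read through C47E8.5.1 or C47E8.4. The range was taken from these same summits. The share over all IDR peaks was not counted, so this distance is not shown to be particular to peaks with AGCGCG.

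The 3 IDR peaks at cdc-48.1, hsp-1 and daf-21 shared 10 words of 6 bp, read on both strands. AGCGCG had the lowest share of pooled summits among them (2.06%), followed by ACGAAA (14.3% of pooled and 29.2% of IDR summits) and AAAAGG (16.3% and 25%). AGCGCG was already known to be at these 3 peaks, so finding it among the shared words is no separate evidence. Words shared by other sets of 3 summits were not counted.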
